A study of Mus musculus with 12 samples.

Results

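The genes described here are 40 genes of mitosis and the G2/M transition, measured by RNA sequencing in sorted spinal cord microglia of mice with chronic-relapsing experimental autoimmune encephalomyelitis (crEAE), a relapsing model of multiple sclerosis. They were taken as a list of symbols from known roles in cell division, and all 40 were found among the 48526 genes of the count files. Of the 40, 35 were among the 12545 genes that passed the filter on low counts, and Ccnb2, Aurka, Bub1, Ttk and Kif4 did not. The groups were Biozzi ABH mice with crEAE in the acute phase, in remission and in the chronic phase, and control mice of the same strain, with 3 mice per group and 1 library per mouse. Per the series' design text, cells were gated as CD11b-positive, CD45-intermediate and Ly-6C-negative. Total RNA was reverse transcribed with random hexamers, and a Tn5-based kit that loses strand information gave the libraries. The labels give no age, sex or inducing agent, and nothing on what the control mice received. The replicate number used below is only a name within a group.

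In a dividing cell, cyclin A and cyclin B activate the kinase CDK1, which drives the cell from G2 into mitosis, and Polo and Aurora kinases with the spindle checkpoint, kinetochores and kinesins then attach and separate the chromosomes. Genes of this step are switched on together late in the cell cycle by FOXM1 and B-MYB with the MuvB core, and held off in resting cells by the DREAM complex, which binds CHR elements near their start sites, often with NF-Y bound at CCAAT boxes. Microglia divide rarely in the healthy adult spinal cord, and microglia, recruited monocytes and lymphocytes can all divide in inflamed tissue.

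The promoters of 5 of these genes are shown because most of the 40 genes hold the same short motifs there. These 5 had the smallest p in acute against control mice among tested genes whose promoter was available and held the CHR letters. Chromosomes from which no sequence is shown were left out. Incenp and Aurkb were among the 6 genes without an available promoter and could not enter this choice. Sequences are from RefSeq on GRCm38.p6, 300 bases each from 250 before to 50 after the start, written 5′ to 3′ on the strand of the gene. The start is the one RefSeq gives, and for Kif2c it lies 3867 bases inside the outermost start of the gene in GENCODE. Capitals mark TTTGAA (the core letters of a CHR element) and CCAAT (the NF-Y box) on either strand, read as TTCAAA and ATTGG on the other one. In Ube2c, a CCAAT and an ATTGG overlap.
Ube2c (chr2:164769679-164769978, plus strand): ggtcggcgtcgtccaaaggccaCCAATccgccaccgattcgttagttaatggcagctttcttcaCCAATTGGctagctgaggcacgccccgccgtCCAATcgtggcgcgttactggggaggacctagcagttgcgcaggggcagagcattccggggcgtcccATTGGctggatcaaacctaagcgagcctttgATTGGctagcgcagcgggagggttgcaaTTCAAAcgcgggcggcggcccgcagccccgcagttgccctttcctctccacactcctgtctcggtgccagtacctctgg
Plk1 (chr7:122159185-122159484, plus strand): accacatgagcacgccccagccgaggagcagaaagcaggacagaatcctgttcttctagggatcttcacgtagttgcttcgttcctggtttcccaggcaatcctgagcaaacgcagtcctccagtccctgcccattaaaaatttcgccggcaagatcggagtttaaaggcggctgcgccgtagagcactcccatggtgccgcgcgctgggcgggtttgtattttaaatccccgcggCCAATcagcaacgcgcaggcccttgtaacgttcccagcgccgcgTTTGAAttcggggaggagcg
Kif11 (chr19:37376132-37376431, plus strand): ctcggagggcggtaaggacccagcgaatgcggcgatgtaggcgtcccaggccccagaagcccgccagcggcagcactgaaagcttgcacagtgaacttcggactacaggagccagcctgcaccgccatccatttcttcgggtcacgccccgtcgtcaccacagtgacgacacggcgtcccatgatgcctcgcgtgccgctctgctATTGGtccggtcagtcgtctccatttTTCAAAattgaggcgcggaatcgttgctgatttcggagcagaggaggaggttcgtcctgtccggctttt
Kif2c (chr4:117178723-117179022, minus strand): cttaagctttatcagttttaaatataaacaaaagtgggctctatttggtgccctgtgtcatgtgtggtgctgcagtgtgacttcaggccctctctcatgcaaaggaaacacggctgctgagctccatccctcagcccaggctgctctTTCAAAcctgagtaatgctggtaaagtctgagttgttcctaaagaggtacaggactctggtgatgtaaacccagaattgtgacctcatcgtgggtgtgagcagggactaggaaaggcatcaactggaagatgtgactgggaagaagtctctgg
Mki67 (chr7:135716330-135716629, minus strand): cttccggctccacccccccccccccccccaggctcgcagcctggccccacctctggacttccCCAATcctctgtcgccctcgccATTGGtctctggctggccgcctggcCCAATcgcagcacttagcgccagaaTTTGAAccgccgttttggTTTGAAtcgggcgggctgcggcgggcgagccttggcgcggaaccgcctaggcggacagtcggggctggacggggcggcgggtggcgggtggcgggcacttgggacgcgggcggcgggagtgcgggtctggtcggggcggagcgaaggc
TTTGAA stood in the promoters of 27 of the 34 genes that the promoter table held (79.4%, 95% Wilson interval 63.2 to 89.7%), against 4893 of all 27025 promoters of the same length (18.1%). CCAAT stood in 25 of 34 (73.5%), against 37.9% of all promoters, and both motifs in 22 of 34 (64.7%), against 7.12%. Within 50 bases of the start, TTTGAA was found in 25 of the 34 (73.5%), against 1330 of all promoters (4.92%). Aurkb, Ccna2, Foxm1, Incenp, Kif20a and Tpx2 were not matched in the table. Nusap1, Ncaph, Bub1, Cenpe, Mad2l1, Birc5 and Ccnb1 had no TTTGAA in this window. A match describes the letters and is not a site of binding.

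**Figure D1:**
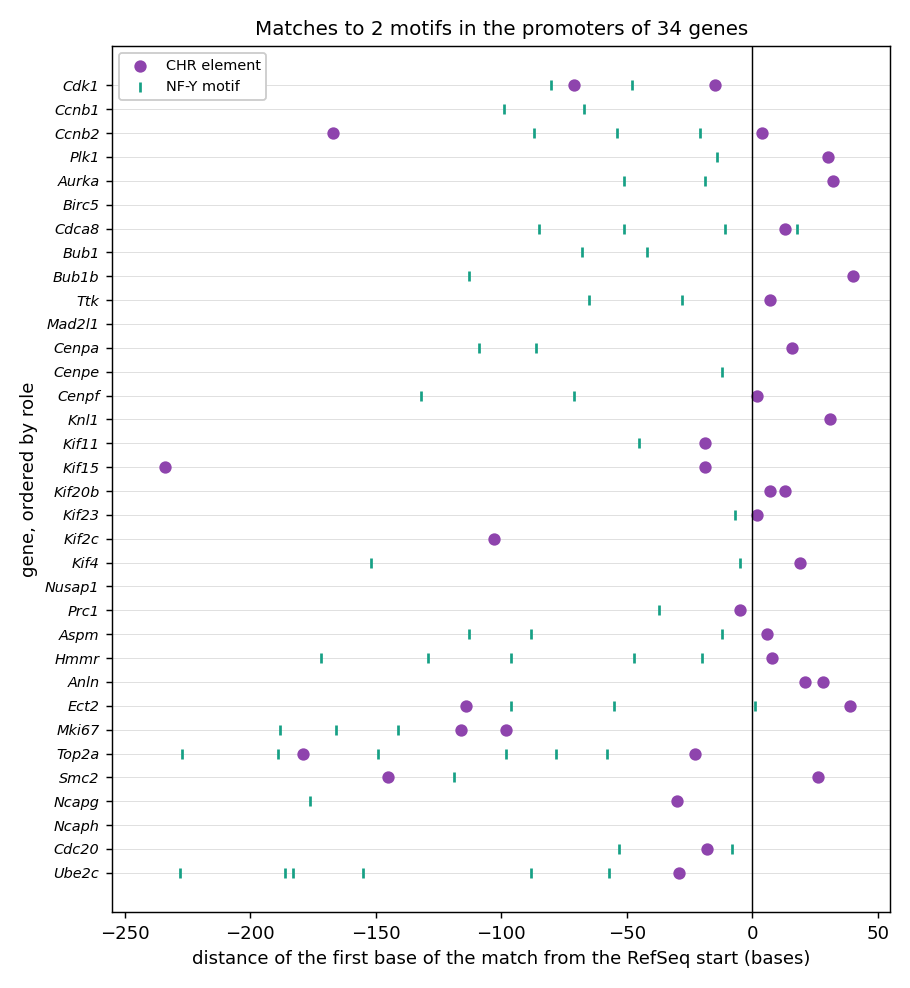
Positions of TTTGAA (circles, CHR element) and CCAAT (bars, NF-Y motif) in 34 promoters, 1 row per gene, with the distance in bases from the RefSeq start on the x axis. For Kif2c and Cdca8 that start lies 3867 and 2394 bases inside the outermost start in GENCODE, and 31 of the 34 lie within 200 bases of it. Most circles lie within 50 bases of the start, and most bars lie before it.

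Total counts ranged from 3992885 to 5712376 per library, and 1266782 to 2496096 counts remained outside the 6 largest features and the mitochondrially encoded genes. The 40 genes were thinly counted, with 56 (Ube2c) to 1550 (Mki67) counts over all 12 libraries and a median of 176.5. Levels are CPM, read counts scaled to a common library size, after scaling by trimmed mean of M-values (TMM). The labelled cell type was checked against 10 microglial markers, whose summed level lay at 2325, 2695 and 3588 CPM in acute, 7686, 7589 and 7824 CPM in remission, 7339.8, 7458 and 7238 CPM in chronic and 9323, 10419.9 and 10307 CPM in control libraries. The gate was negative for Ly-6C. Marker genes of several other cell types nevertheless passed as higher in acute mice, while some lists went the other way or did not pass. Markers of monocytes and recruited macrophages summed to 1948 to 2955 CPM in acute libraries, against 24.9 to 64.5 CPM in control libraries, and all 14 tested genes of that list were higher in acute mice. T and NK cell markers summed to 64.0 to 98.8 CPM in acute libraries, against 0 to 0.701 CPM in control libraries, and all 6 tested were higher. Of 10 tested neutrophil markers 8 were higher and 1 was lower, of 6 tested oligodendrocyte and myelin markers 5 were higher, and all 10 microglial markers were lower. Of tested erythroid, oligodendrocyte precursor and astrocyte markers, 3 of 3, 2 of 3 and 3 of 5 were higher, as was the border macrophage marker F13a1. Both tested B cell markers, Cd79b and Ighm, were lower, neither tested neuronal marker passed, and of 2 dendritic and 3 vascular markers tested 1 each was higher and 1 lower. Of all genes tested, 23.7% were higher and 20.0% lower in acute than in control mice. Ly6c2 had 144 to 295 counts in acute libraries and 0 in each control library, and Cd3e had 29 to 59 and 0. In these bulk samples, more cells of a type and more RNA per cell cannot be told apart.

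One library stood apart for these genes. Chronic replicate 3 had the highest level of all 12 libraries for 40 of the 40 genes, a place it took for 7.19% of all genes tested. Its level was a median of 4.92 times the mean of the other two chronic libraries, and 1.003 times over all tested genes, with Nusap1 lowest at 1.37 and Ube2c highest at 18.2. Monocyte markers stood at 72.2 CPM (12 of 15 with a count), against 64.0 and 42.1 CPM in chronic replicates 1 and 2, and microglial markers at 7238 CPM, against 7340 and 7458 CPM. T and NK cell markers stood at 0.765 CPM with 9 of 12 at 0 counts, Cd3e and Pdgfra had 0 counts, Ly6c2 had 1 and S100a8 had 9, against 4 and 0 in replicates 1 and 2. Among 13 marker lists, its ratio to the other two chronic libraries was highest for neurons (2.65, at 10.2 CPM) and lowest for oligodendrocyte precursors (0.194, at 4.85 CPM). The part of depth, sort or mouse in this was not tested, and tests of the chronic phase are given with and without this library; chronic means with an SD include it.

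The summed level of the 40 genes was 271, 222 and 285 CPM in acute, 76.2, 57.0 and 47.5 CPM in remission, 163, 151 and 719 CPM in chronic and 93.6, 78.0 and 71.0 CPM in control libraries. All acute libraries lay above all control libraries, 2 of the 3 remission libraries lay below all of them, and chronic replicates 1 and 2 lay between control and acute libraries. The means were 259 ± 33.0 CPM in acute, 60.3 ± 14.6 CPM in remission, 344 ± 325 CPM in chronic and 80.9 ± 11.6 CPM in control mice (SD, n = 3 each). Acute mice stood at 3.21 times, remission at 0.745 times and chronic mice at 4.26 times the control mean. Chronic replicates 1 and 2 alone averaged 157 CPM, 1.94 times the control mean. Mki67, the antigen Ki-67 that coats mitotic chromosomes, made up 21.8% of the acute sum, 6.16% in remission, 16.7% in the chronic phase (15.1% without replicate 3) and 10.1% in control mice. Without Mki67 and Top2a, a check chosen after seeing the data, acute mice still averaged 184 ± 29.3 CPM, against 68.4 ± 9.35 CPM in control mice.

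**Figure D2:**
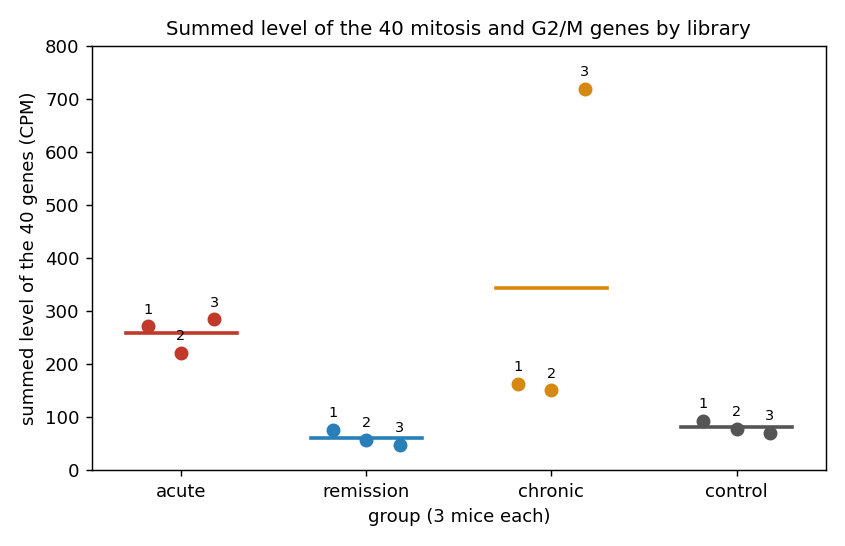
Summed level of the 40 genes (CPM, y axis from 0) in each library, by group, with replicate numbers above the points and group means as lines. Acute libraries lie at 222 to 285 CPM, remission at 47.5 to 76.2, chronic at 151, 163 and 719, and control at 71.0 to 93.6.

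Per kilobase of exon, counted over all annotated exon bases of a gene, the highest were Mki67 (5.62 CPM per kb), Incenp (4.15) and Top2a (2.11) in acute mice. This length can exceed that of a single transcript, so the order of genes depends in part on the annotation. In the chronic phase Mki67 (5.72), Top2a (3.71) and Incenp (3.64) led with all 3 libraries. In chronic replicates 1 and 2 the means were 2.35 for Mki67, 2.30 for Incenp and 1.68 for Top2a, which is the acute order. Incenp led in remission (2.70) and in control mice (1.64), where Mki67 stood at 0.814 CPM per kb, and Incenp alone made up 19.4% of the summed level in remission.

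The comparison of acute with control mice addresses the first disease phase. Of the 35 tested genes, 16 were higher in acute mice at an adjusted p under 0.05 (quasi-likelihood test of edgeR, p adjusted by Benjamini-Hochberg over 12545 genes), against 23.7% of all genes tested. These 16 were Ccna2, Ccnb1, Plk1, Aurkb, Incenp, Bub1b, Cenpa, Cenpe, Knl1, Kif11, Kif2c, Tpx2, Aspm, Mki67, Top2a and Ube2c. None was lower (20.0% of all genes tested), with 0 at an unadjusted p under 0.05, by DESeq2 and by limma-voom. Limma-voom was run with quality weights that can give a library less weight. The median log2 fold change was 1.56, beside 0.02 over all genes. Over the 40 genes, all 3 acute libraries lay above all 3 control libraries for 31, a pattern of 30.0% of all genes tested, and the acute mean was below the control mean for Hmmr and Ncaph. Of the 16 calls, 5 (Ccna2, Plk1, Aurkb, Incenp and Ube2c) held whichever of the 12 libraries was left out. Without acute replicate 1 or 3 the count was 10 of 36 and 9 of 38 genes tested. Without control replicate 1, 2 or 3 it was 9 of 37, 8 of 37 and 6 of 38. Without chronic replicate 3 it was 25 of 36. The share of all genes called in these fits is not given here, so the counts stand without a background. Scaling by library totals alone left 8, and the number in the titles as a covariate left 13, without Tpx2, Aspm and Top2a. A fit of only the acute and control libraries kept 13 of the 16. Its filter on low counts removed the other 3, Ccnb1, Plk1 and Ube2c. Of the 5 above, Plk1 and Ube2c were therefore not tested in that fit. The part of the monocyte, T and NK cell markers in these differences was not tested.

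In remission against acute mice, 21 of 35 were lower in remission, against 19.4% of all genes tested. The median log2 fold change was -2.36, beside -0.01 over all genes. None was higher (17.6% of all genes tested), with 0 at an unadjusted p under 0.05, by DESeq2 and by limma-voom. All 3 remission libraries lay below all 3 acute libraries for 33 of 40 genes, against 24.9% of all genes tested. The call held whichever library was left out for 12: Ccna2, Ccnb1, Birc5, Cdca8, Bub1b, Cenpe, Cenpf, Kif11, Kif23, Tpx2, Aspm and Mki67. Monocyte markers moved the same way, with all 14 tested lower in remission (32.3 to 43.2 CPM summed, against 1948 to 2955 CPM in acute libraries), as were all 6 tested T and NK cell and 6 of 10 neutrophil markers, of which 1 was higher. All 10 microglial and both B cell markers were higher in remission. The part of these markers was not tested. With the number in the titles as a covariate 18 of the 21 remained, without Plk1, Smc2 and Ncapg. Limma-voom kept 17 of the 21, without Cenpf, Knl1, Top2a and Ncapg. A fit of only the remission and acute libraries kept 15 of the 21. Its filter removed the other 6, among them Ccnb1, Birc5 and Cdca8 of the 12 above.

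In remission against control mice, 0 of 35 passed in either direction, where 6.06% of all genes tested were higher and 3.25% lower. At an unadjusted p under 0.05, 1 was higher and 4 were lower in remission by edgeR; DESeq2 called 1 lower (Cenpf) and limma-voom none. The median log2 fold change was -0.54, beside 0.01 over all genes, and the remission mean was below the control mean for 31 of 40. The log2 fold change was negative for 25 of the 35 tested, against 6110 of the 12545 genes. All remission libraries lay below all control libraries for 10 of 40 and above for 2, against 13.8% and 14.4% of all genes tested. Without chronic replicate 3, which enters the shared estimate of spread, Cenpf, Kif23 and Prc1 were lower and Incenp higher in remission, and without chronic replicate 2 Cenpf was lower.

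In chronic against control mice, 22 of 35 were higher in the chronic phase, against 9.57% of all genes tested, with a median log2 fold change of 2.03, beside -0.01 over all genes. None was lower (5.17% of all genes tested), with 0 at an unadjusted p under 0.05, by DESeq2 and by limma-voom. The 22 comprised the 16 genes called in acute mice, which share the control libraries, and Cdk1, Cdca8, Kif15, Kif20b, Ect2 and Smc2. Without chronic replicate 3 only 4 remained: Ccna2 at 1.38 ± 0.43 (adjusted p 0.0404), Cenpa at 1.45 ± 0.43 (adjusted p 0.0309), Mki67 at 1.52 ± 0.36 (adjusted p 0.0137) and Top2a at 1.80 ± 0.38 (adjusted p 0.00365), as log2 fold change ± SE. The median log2 fold change over the 36 genes then tested was 1.05, beside -0.03 over all genes, and 7.2% of all genes tested in that fit were higher. All 3 chronic libraries lay above all control libraries for 25 of 40 genes, against 16.5% of all genes tested. Chronic replicates 1 and 2 averaged above control for 37 of 40, a count that was not made over all genes. Leaving out control replicate 1, 2 or 3 left calls for 6 of 37, 8 of 37 and 6 of 38 genes tested. The share of all genes called in those fits is not given here. Fitting only the chronic and control libraries left 2 (Ccna2 and Tpx2) and added Nusap1, with 26 of the 40 genes tested. Of the 22 genes called with all libraries, 5 were not tested in that 2-group fit. Limma-voom with all libraries kept 12 of the 22 and added Nusap1. It lost Cdk1, Plk1, Cenpe, Knl1, Kif20b, Kif2c, Aspm, Mki67, Smc2 and Ube2c. Of the marker lists, 5 of 10 microglial markers were lower in the chronic phase, 2 of 14 monocyte markers were higher and 1 lower, and none of 6 T and NK cell markers passed.

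In chronic against acute mice, 1 of 35 passed, against 13.3% of all genes tested: Ncaph, higher in the chronic phase (log2 fold change 1.20 ± 0.40, adjusted p 0.0295). None was lower (15.5% of all genes tested), with 0 at an unadjusted p under 0.05, and DESeq2 and limma-voom called none lower. Without chronic replicate 3 the median log2 fold change was -0.58 in place of 0.48 (and -0.07 by limma-voom with quality weights and all libraries), Ncaph did not pass, and 4 were lower in the chronic phase, against 15.5% of all genes tested in that fit: Mki67 at -1.26 ± 0.34 (adjusted p 0.0138), Incenp at -0.84 ± 0.24 (adjusted p 0.0119), Anln at -1.66 ± 0.58 (adjusted p 0.0459) and Ube2c at -2.94 ± 0.996 (adjusted p 0.0321). The direction of the chronic and acute means therefore rested on that library. All 14 monocyte and all 6 T and NK cell markers tested were lower and all 10 microglial markers higher in chronic than in acute mice, and their part was not tested. In chronic against remission mice, 11 of 35 were higher in the chronic phase, against 0.941% of all genes tested, with a median of 2.77 beside -0.01. These were Ccna2, Ccnb1, Birc5, Cdca8, Bub1b, Cenpe, Cenpf, Kif11, Kif23, Tpx2 and Aspm. The log2 fold change was 2.43 ± 0.48 (adjusted p 0.0201) for Ccna2 and 4.55 ± 0.88 (adjusted p 0.0333) for Cenpf, and 1.61 ± 0.44 (adjusted p 0.137) and 3.33 ± 0.58 (adjusted p 0.00906) without chronic replicate 3. None was lower (0.263% of all genes tested), with 0 at an unadjusted p under 0.05, by DESeq2 and by limma-voom. Without chronic replicate 3 the median was 1.67 and 4 passed, Cenpf and Aspm of the 11 and also Mki67 and Top2a, against 0.331% of all genes tested in that fit. Leaving out remission replicate 1, 2 or 3 left 1, 4 and 0 of the 11, with Aurkb and Kif15 added in the second case. Leaving out chronic replicate 1 or 2 gave 23 of 38 and 20 of 37 genes tested. The share of all genes called in these leave-out fits is not given here. None of the 11 passed by limma-voom with quality weights, and Cenpf, Kif11 and Aspm did not with the number in the titles as a covariate. All 3 chronic libraries lay above all remission libraries for 26 of 40 genes, against 9.42% of all genes tested.

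**Figure D3:**
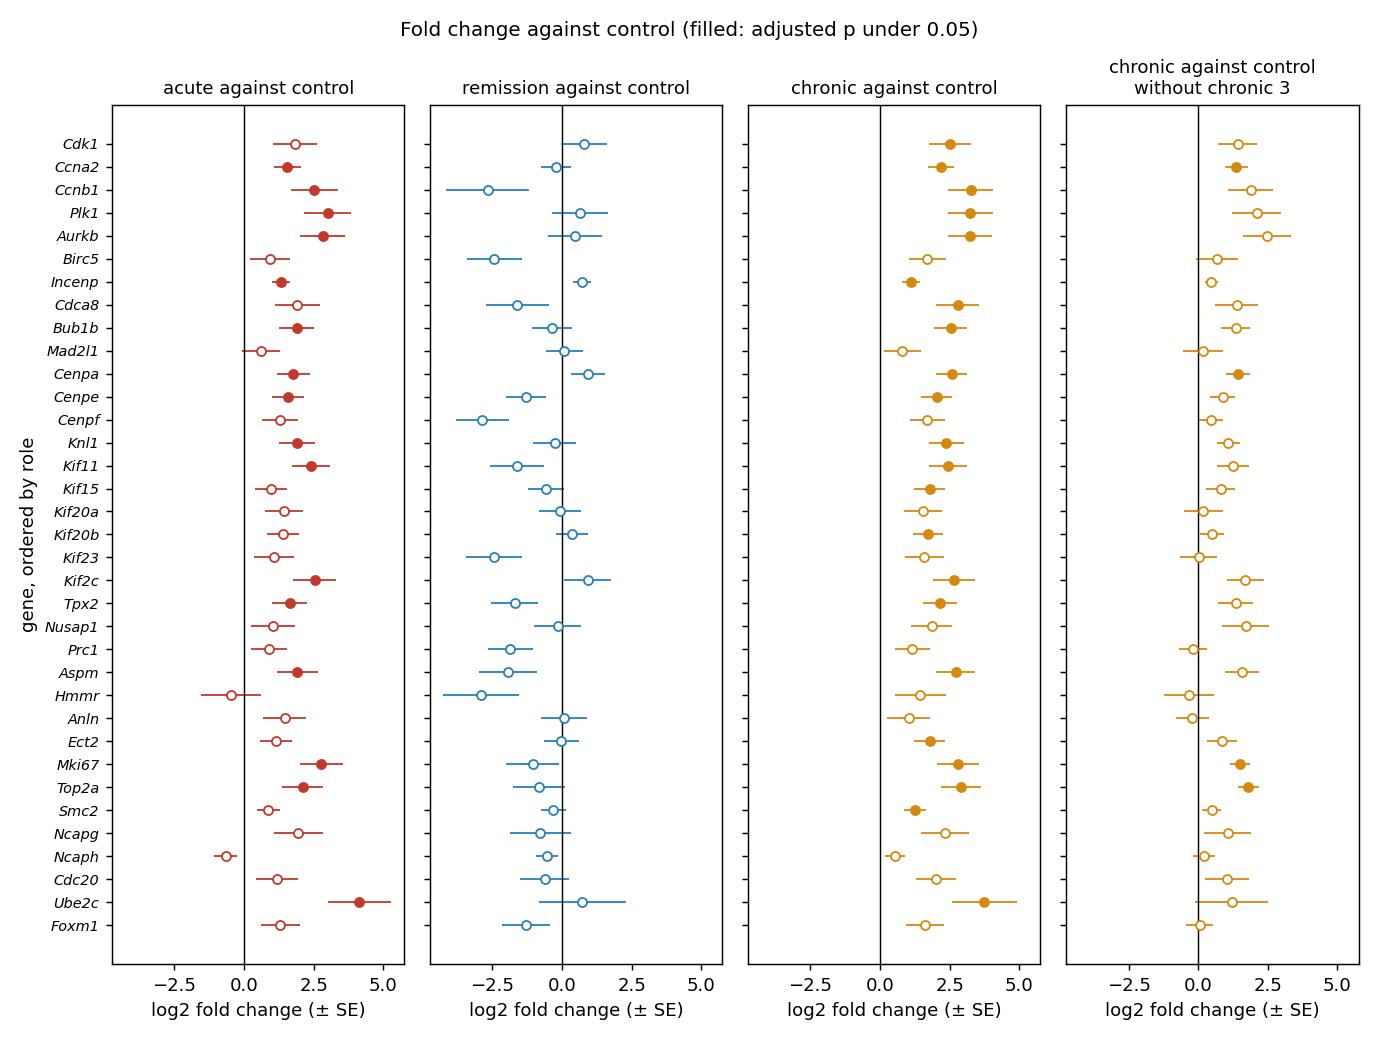
Log2 fold change (x axis, bars are SE) of the 35 tested genes in acute, remission and chronic against control mice, and in chronic against control mice without chronic replicate 3, with filled points at an adjusted p under 0.05. Of the 35, 16 are filled for acute, 0 for remission, 22 for chronic mice and 4 without that library, and the 4 panels share the control libraries.

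Among cyclins and their kinase, Ccna2, which encodes cyclin A2 of S phase and G2, stood at 5.45, 4.53 and 5.93 CPM in acute and 1.66, 1.72 and 1.06 CPM in remission libraries. It was 5.22, 4.14 and 15.8 CPM in chronic and 1.71, 2.10 and 1.51 CPM in control libraries. Acute libraries did not overlap control or remission libraries, and chronic replicates 1 and 2 lay near the acute ones. Its log2 fold change was 1.56 ± 0.48 (adjusted p 0.0121) in acute and 2.19 ± 0.46 (adjusted p 0.00213) in chronic against control mice, and -1.79 ± 0.50 (adjusted p 0.00804) in remission against acute mice. Ccnb1, which encodes cyclin B1, the partner that carries CDK1 into mitosis, stood at 4.41, 1.86 and 4.15 CPM in acute and 0, 0.191 and 0 CPM in remission libraries. Chronic libraries gave 2.72, 1.80 and 13.3 CPM and control libraries 0.142, 1.23 and 0.432 CPM. Remission was nearly empty of it, with 1 count in 3 libraries against 38 in acute libraries, a pooled ratio of remission to acute of 0.0201 (exact 95% counting interval 0.000495 to 0.119). It was higher in acute than in control mice (log2 fold change 2.51 ± 0.85, adjusted p 0.0227). Cdk1 itself stood at 6.23, 2.13 and 3.26 CPM in acute and 3.14, 1.91 and 0.266 CPM in remission libraries. Chronic libraries held 2.95, 2.88 and 13.3 CPM and control libraries 1.71, 0.350 and 1.08 CPM. Acute and chronic libraries all lay above control libraries, but remission libraries spread from below to above the control range. Its change passed in chronic against control mice (2.51 ± 0.76, adjusted p 0.0384) and not in acute against control mice (1.83 ± 0.80, adjusted p 0.0766). Of the exon bases of Ccna2, 12.5% overlap a neighbour, and Ccnb1 has a named pseudogene. Ccnb2, for cyclin B2, did not pass the filter and had 29 counts in acute, 4 in remission, 51 in chronic (40 of them in replicate 3) and 10 in control libraries. Here and in the next paragraphs, acute and chronic calls are those against control mice and remission calls those against acute mice, and values after ± are SE. With 1 library left out at a time, Ccnb1 lost its acute call without acute replicate 1 or 3, or control replicate 1 or 3 (adjusted p up to 0.0969). Ccnb1 lost its chronic call without chronic replicate 3, or control replicate 1 or 3 (adjusted p up to 0.159). Cdk1 lost its chronic call without acute replicate 3, or remission replicate 2, or chronic replicate 3, or control replicate 1, 2 or 3 (adjusted p up to 0.244). For Ccna2 and Cdk1, leaving out chronic replicate 3 gave chronic log2 fold changes of 1.38 ± 0.43 and 1.42 ± 0.70.

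Plk1, the Polo-like kinase of spindle poles and mitotic entry whose promoter is printed above, stood at 3.37, 3.46 and 2.07 CPM in acute and 0.923, 0.191 and 0.531 CPM in remission libraries. It was 2.72, 0.540 and 7.65 CPM in chronic and 0.284, 0.350 and 0.432 CPM in control libraries. Acute libraries lay above every control and remission library, and chronic replicate 2 lay close to the controls. Its log2 fold change was 3.01 ± 0.84 (adjusted p 0.0062) in acute and 3.24 ± 0.82 (adjusted p 0.00897) in chronic against control mice, and -2.38 ± 0.81 (adjusted p 0.0251) in remission against acute mice. Plk1 lost its chronic call without chronic replicate 3, or control replicate 1 (adjusted p up to 0.151). For Plk1, leaving out chronic replicate 3 gave a chronic log2 fold change of 2.10 ± 0.88. Plk1 lost its remission call without acute replicate 1 or 2, or remission replicate 2 or 3 (adjusted p up to 0.1). Aurka, for the centrosomal Aurora A kinase, did not pass the filter, with 24 counts in acute, 11 in remission, 43 in chronic (29 of them in replicate 3) and 16 in control libraries.

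The chromosomal passenger complex corrects faulty attachments at the centromere. Its kinase gene Aurkb stood at 3.11, 3.20 and 3.56 CPM in acute and 0.185, 1.34 and 0.266 CPM in remission libraries. Chronic libraries gave 3.18, 1.98 and 8.16 CPM and control libraries 0.996, 0.175 and 0 CPM. Acute libraries were close to each other and above every control and remission library, with log2 fold changes of 2.82 ± 0.81 (adjusted p 0.00764) against control mice and -2.36 ± 0.80 (adjusted p 0.0248) for remission against acute mice. The scaffold gene Incenp stood at 19.7, 18.1 and 16.01 CPM in acute and 10.2, 13.2 and 11.69 CPM in remission libraries. Chronic libraries held 10.2, 9.72 and 27.3 CPM and control libraries 8.11, 6.13 and 7.12 CPM. It was higher in acute than in control mice (log2 fold change 1.33 ± 0.32, adjusted p 0.00281), and its remission libraries also lay above all control libraries (log2 fold change 0.71 ± 0.33, adjusted p 0.216), which did not pass. Birc5, for survivin, stood at 2.59, 2.13 and 2.37 CPM in acute and 0.369, 0.191 and 0 CPM in remission libraries. It was 2.72, 1.26 and 8.42 CPM in chronic and 2.13, 0.350 and 1.08 CPM in control libraries. Its remission libraries held 3 counts in all and lay below every acute library, a pooled ratio of remission to acute of 0.0879 (exact 95% counting interval 0.0170 to 0.287), while the acute range touched the control range. Cdca8, for borealin, stood at 3.89, 2.13 and 2.07 CPM in acute and 0.185, 0 and 0.531 CPM in remission libraries. Chronic libraries gave 1.36, 2.34 and 11.5 CPM and control libraries 0.711, 0.350 and 1.08 CPM. It was lower in remission than in acute mice, with 3 against 30 counts and a ratio of remission to acute of 0.0762 (exact 95% counting interval 0.0149 to 0.245). It was higher in chronic than in control mice (log2 fold change 2.78 ± 0.76, adjusted p 0.0165). In chronic against control mice, Aurkb and Incenp also passed (3.23 ± 0.78, adjusted p 0.00705, and 1.11 ± 0.32, adjusted p 0.0254). Aurkb lost its chronic call without chronic replicate 3 (adjusted p 0.0705). Incenp lost its chronic call without chronic replicate 3, or control replicate 1, 2 or 3 (adjusted p up to 0.268). Cdca8 lost its chronic call without chronic replicate 3, or control replicate 1 or 2 (adjusted p up to 0.319). For Aurkb, Incenp and Cdca8, leaving out chronic replicate 3 gave chronic log2 fold changes of 2.48 ± 0.85, 0.48 ± 0.25 and 1.39 ± 0.78. Aurkb lost its remission call without acute replicate 1, 2 or 3, or remission replicate 1 or 3 (adjusted p up to 0.0839).

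Of the spindle checkpoint, which holds anaphase until chromosomes are attached, Bub1b (BubR1) stood at 3.89, 5.06 and 5.04 CPM in acute and 0.923, 1.34 and 0.531 CPM in remission libraries. Chronic libraries held 2.72, 3.60 and 16.1 CPM and control libraries 1.71, 1.05 and 0.863 CPM. Acute libraries lay above all control and remission libraries (log2 fold change 1.89 ± 0.61, adjusted p 0.0176) against control, and remission was lower than acute (log2 fold change -2.25 ± 0.65, adjusted p 0.0109). In the chronic phase it was higher than in control mice (log2 fold change 2.53 ± 0.59, adjusted p 0.00553), with chronic replicates 1 and 2 also above all controls. Bub1b lost its acute call without control replicate 2 or 3 (adjusted p up to 0.0635). Bub1b lost its chronic call without chronic replicate 3 (adjusted p 0.122). For Bub1b, leaving out chronic replicate 3 gave a chronic log2 fold change of 1.34 ± 0.53. Mad2l1, the checkpoint protein MAD2, passed in no comparison, at 3.05 ± 1.10 CPM in acute, 2.0002 ± 1.76 CPM in remission, 3.53 ± 2.26 CPM in chronic (2.24 without replicate 3) and 2.01 ± 0.789 CPM in control mice (SD, n = 3 each). The checkpoint kinase genes Bub1 and Ttk did not pass the filter. Bub1 had 16 counts in acute, 3 in remission, 49 in chronic (37 of them in replicate 3) and 9 in control libraries, and Ttk had 15 counts in acute, 1 in remission, 35 in chronic (23 of them in replicate 3) and 6 in control libraries.

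At the centromere, Cenpa, the histone H3 variant that marks it, stood at 6.23, 5.06 and 6.52 CPM in acute and 2.95, 3.44 and 3.45 CPM in remission libraries. It was 3.18, 6.12 and 22.2 CPM in chronic and 2.13, 1.23 and 1.73 CPM in control libraries. All libraries of mice with EAE lay above all control libraries, and the change passed in acute (1.78 ± 0.59, adjusted p 0.0222) and chronic mice (2.57 ± 0.56, adjusted p 0.00467) but not in remission (0.92 ± 0.61, adjusted p 0.425). Cenpe, a kinetochore motor, stood at 4.93, 5.33 and 10.1 CPM in acute and 1.29, 0.574 and 0.797 CPM in remission libraries. Chronic libraries gave 4.31, 3.96 and 19.9 CPM and control libraries 2.56, 1.93 and 2.16 CPM. Its remission libraries lay below every library of the other groups (log2 fold change -2.87 ± 0.67, adjusted p 0.00312) against acute mice, and the acute libraries lay above control (log2 fold change 1.58 ± 0.57, adjusted p 0.0349). Cenpf, a large coiled-coil protein that peaks in G2 and mitosis, stood at 7.26, 6.39 and 13.6 CPM in acute and 0.738, 0.383 and 0.266 CPM in remission libraries. Chronic libraries held 7.04, 3.24 and 26.3 CPM and control libraries 4.69, 3.33 and 2.81 CPM. It had 7 counts in remission libraries, against 98 in acute libraries, a log2 fold change of -4.15 ± 0.90 (adjusted p 0.00342), and remission libraries also lay below all control libraries (-2.86 ± 0.96, adjusted p 0.0949). Knl1, the kinetochore scaffold that recruits checkpoint proteins, stood at 5.97, 9.59 and 11.9 CPM in acute and 2.21, 2.10 and 1.59 CPM in remission libraries. It was 6.58, 3.78 and 28.6 CPM in chronic and 2.56, 2.28 and 2.37 CPM in control libraries. Control libraries were tightly grouped, acute libraries lay above them (log2 fold change 1.90 ± 0.66, adjusted p 0.0335), and remission lay below acute (log2 fold change -2.17 ± 0.69, adjusted p 0.0269). In chronic against control mice, Cenpe (2.03 ± 0.56, adjusted p 0.0205) and Knl1 (2.38 ± 0.64, adjusted p 0.025) passed too. Cenpa lost its acute call without acute replicate 1 or 3, or control replicate 2 or 3 (adjusted p up to 0.0819). Cenpe lost its acute call without acute replicate 3, or remission replicate 3, or control replicate 1, 2 or 3 (adjusted p up to 0.148). Knl1 lost its acute call without acute replicate 2 or 3, or remission replicate 1, or control replicate 1, 2 or 3 (adjusted p up to 0.0997). Cenpe lost its chronic call without chronic replicate 3, or control replicate 1, 2 or 3 (adjusted p up to 0.264). Knl1 lost its chronic call without chronic replicate 3, or control replicate 1, 2 or 3 (adjusted p up to 0.105). For Cenpa, Cenpe and Knl1, leaving out chronic replicate 3 gave chronic log2 fold changes of 1.45 ± 0.43, 0.88 ± 0.45 and 1.08 ± 0.41. Knl1 lost its remission call without acute replicate 2 or 3, or remission replicate 1, 2 or 3 (adjusted p up to 0.0844).

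Of the kinesins, motors of the spindle, Kif11 (Eg5), which pushes spindle poles apart, stood at 5.45, 4.80 and 11.3 CPM in acute and 0.738, 0.191 and 0.266 CPM in remission libraries. Chronic libraries gave 2.497, 3.78 and 15.8 CPM and control libraries 0.996, 2.28 and 0.647 CPM. The 3 acute libraries lay above all control libraries (log2 fold change 2.41 ± 0.69, adjusted p 0.0103), and the remission libraries below all acute libraries (log2 fold change -4.02 ± 0.84, adjusted p 0.00161), with 6 against 77 counts. Kif2c (MCAK), which shortens microtubules at centromeres, stood at 3.11, 9.06 and 7.41 CPM in acute and 2.58, 2.49 and 1.06 CPM in remission libraries. Chronic libraries held 4.99, 2.34 and 14.5 CPM and control libraries 2.28, 0.350 and 0.432 CPM. Acute libraries lay above all control libraries (log2 fold change 2.53 ± 0.77, adjusted p 0.0161), although control replicate 1 lay well above the other two controls. Kif23, a motor of the midbody in cytokinesis, stood at 4.93, 2.66 and 2.96 CPM in acute and 0.185, 0.191 and 0.531 CPM in remission libraries. It was 1.14, 2.16 and 12.2 CPM in chronic and 2.70, 1.05 and 1.08 CPM in control libraries. It was lower in remission than in acute mice (log2 fold change -3.53 ± 0.96, adjusted p 0.00815), while acute and control libraries overlapped. Kif15, a second spindle motor, stood at 3.37, 4.80 and 5.04 CPM in acute and 1.48, 2.30 and 0.531 CPM in remission libraries. Chronic libraries gave 2.72, 5.04 and 15.8 CPM and control libraries 1.42, 3.15 and 2.16 CPM. Kif20b, active in late cytokinesis, stood at 4.41, 5.33 and 7.41 CPM in acute and 2.77, 2.10 and 3.45 CPM in remission libraries. Chronic libraries held 2.95, 3.06 and 15.8 CPM and control libraries 1.99, 2.45 and 1.94 CPM. Acute libraries of both lay above all control libraries without passing (0.97 ± 0.59, adjusted p 0.192, and 1.41 ± 0.56, adjusted p 0.052). In chronic against control mice, Kif11 (2.43 ± 0.68, adjusted p 0.0249), Kif2c (2.66 ± 0.75, adjusted p 0.0296), Kif15 (1.79 ± 0.55, adjusted p 0.037) and Kif20b (1.72 ± 0.55, adjusted p 0.0418) passed. Kif20a passed in no comparison, and 29.3% of its exon bases overlap Cdc23 on the other strand, so that reads of both cannot be told apart. Its means were 0.738 CPM per kb in acute, 0.242 in remission, 0.813 in chronic (0.308 without replicate 3) and 0.268 in control mice. Kif4, an X-linked chromokinesin gene with a named pseudogene, did not pass the filter, with 21 counts in acute, 1 in remission, 50 in chronic (31 of them in replicate 3) and 14 in control libraries. Kif11 lost its acute call without control replicate 1 (adjusted p 0.0509). Kif2c lost its acute call without acute replicate 2, or control replicate 2 or 3 (adjusted p up to 0.0578). Kif11 lost its chronic call without chronic replicate 3, or control replicate 1 or 3 (adjusted p up to 0.212). Kif2c lost its chronic call without chronic replicate 3, or control replicate 2 or 3 (adjusted p up to 0.126). Kif15 lost its chronic call without acute replicate 2 or 3, or chronic replicate 3, or control replicate 1, 2 or 3 (adjusted p up to 0.394). Kif20b lost its chronic call without acute replicate 1, 2 or 3, or remission replicate 1 or 3, or chronic replicate 3, or control replicate 1, 2 or 3 (adjusted p up to 0.586). For Kif11, Kif2c, Kif15 and Kif20b, leaving out chronic replicate 3 gave chronic log2 fold changes of 1.25 ± 0.58, 1.69 ± 0.67, 0.81 ± 0.51 and 0.49 ± 0.44.

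Among spindle assembly proteins, Tpx2, which activates Aurora A on the spindle, stood at 4.41, 3.20 and 5.63 CPM in acute and 0.185, 0.957 and 0 CPM in remission libraries. It was 4.54, 2.70 and 11.99 CPM in chronic and 2.28, 0.701 and 1.08 CPM in control libraries. Acute libraries lay above all control libraries and 2 of the 3 remission libraries below them, with 1.64 ± 0.63 (adjusted p 0.0434) in acute against control and -3.34 ± 0.78 (adjusted p 0.0024) in remission against acute mice. Aspm, a spindle pole protein, stood at 5.45, 3.46 and 7.11 CPM in acute and 0.738, 0.191 and 0 CPM in remission libraries. Chronic libraries gave 5.45, 3.06 and 19.9 CPM and control libraries 0.853, 2.45 and 0.863 CPM. Remission libraries held 5 counts against 58 in acute libraries, a log2 fold change of -3.86 ± 0.93 (adjusted p 0.00471), and acute libraries lay above control (log2 fold change 1.92 ± 0.73, adjusted p 0.0456). Prc1, which bundles the central spindle, stood at 7.78, 4.26 and 7.41 CPM in acute and 0.369, 0.574 and 2.12 CPM in remission libraries. Chronic libraries held 3.41, 2.70 and 17.6 CPM and control libraries 3.41, 4.03 and 2.81 CPM. It was lower in remission than in acute mice (log2 fold change -2.76 ± 0.80, adjusted p 0.0147), and all acute libraries lay above all control libraries without passing. Of the exon bases of Prc1, 11.1% overlap Rccd1 on the other strand. In chronic against control mice, Tpx2 (2.15 ± 0.61, adjusted p 0.0218) and Aspm (2.72 ± 0.70, adjusted p 0.0161) passed. Nusap1 and Hmmr, both microtubule-binding proteins, passed in no comparison. Means of Nusap1 were 0.436 CPM per kb in acute, 0.180 in remission, 0.774 in chronic (0.690 without replicate 3) and 0.200 in control mice. Hmmr had 13 counts in acute, 3 in remission, 60 in chronic (46 of them in replicate 3) and 29 in control libraries. Tpx2 lost its acute call without acute replicate 1, 2 or 3, or control replicate 2 or 3 (adjusted p up to 0.153). Aspm lost its acute call without acute replicate 1 or 3, or remission replicate 2, or control replicate 1 or 3 (adjusted p up to 0.151). Tpx2 lost its chronic call without chronic replicate 3, or control replicate 2 or 3 (adjusted p up to 0.214). Aspm lost its chronic call without chronic replicate 3, or control replicate 1 or 3 (adjusted p up to 0.109). For Tpx2 and Aspm, leaving out chronic replicate 3 gave chronic log2 fold changes of 1.35 ± 0.63 and 1.58 ± 0.60. Prc1 lost its remission call without acute replicate 1, or remission replicate 1 or 2 (adjusted p up to 0.0653).

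Among genes of chromosome structure, Mki67 stood at 70.6, 49.8 and 49.2 CPM in acute and 7.199, 2.87 and 1.06 CPM in remission libraries. It was 26.8, 20.5 and 125 CPM in chronic and 8.53, 8.06 and 7.98 CPM in control libraries. The 3 control libraries were almost equal, the acute and chronic libraries lay above them, and all remission libraries lay below them. The log2 fold change was 2.78 ± 0.76 (adjusted p 0.017) in acute and 2.79 ± 0.76 (adjusted p 0.0416) in chronic against control mice, and -3.84 ± 0.85 (adjusted p 0.00784) in remission against acute mice. Without chronic replicate 3 the acute difference was 2.77 ± 0.32 (adjusted p 1.21e-05). Top2a, the topoisomerase that untangles sister chromatids, stood at 22.0, 14.9 and 20.2 CPM in acute and 4.43, 1.53 and 1.06 CPM in remission libraries. Chronic libraries gave 14.3, 16.03 and 69.9 CPM and control libraries 6.26, 4.03 and 2.37 CPM. Acute and chronic libraries lay above all control libraries (log2 fold changes 2.12 ± 0.74, adjusted p 0.0438, and 2.91 ± 0.71, adjusted p 0.0251), and remission was lower than acute (log2 fold change -2.94 ± 0.82, adjusted p 0.0207). Of the condensin genes, Smc2 stood at 8.30, 8.53 and 12.4 CPM in acute and 4.06, 3.83 and 5.05 CPM in remission libraries. Chronic libraries held 5.90, 8.82 and 23.7 CPM and control libraries 6.97, 4.38 and 4.32 CPM. It was lower in remission than in acute mice (log2 fold change -1.18 ± 0.44, adjusted p 0.043) and higher in chronic than in control mice (log2 fold change 1.25 ± 0.40, adjusted p 0.0468). Ncapg stood at 3.37, 2.40 and 5.63 CPM in acute and 0.923, 0.574 and 0 CPM in remission libraries. It was 3.63, 0.540 and 10.97 CPM in chronic and 1.14, 1.40 and 0.216 CPM in control libraries. It was lower in remission than in acute mice (log2 fold change -2.74 ± 0.99, adjusted p 0.0406). Of its exon bases, 13.4% overlap Lcorl on the other strand. Ncaph stood at 2.33, 2.40 and 4.74 CPM in acute and 4.06, 3.83 and 2.12 CPM in remission libraries. Chronic libraries gave 5.68, 5.76 and 10.5 CPM and control libraries 6.12, 5.08 and 3.45 CPM. Its acute libraries lay below chronic libraries and overlapped control libraries, and its change from control did not pass in acute mice (-0.66 ± 0.41, adjusted p 0.2). Mki67 lost its acute call without acute replicate 1, or control replicate 1, 2 or 3 (adjusted p up to 0.0552). Top2a lost its acute call without acute replicate 1, 2 or 3, or remission replicate 2 or 3, or control replicate 1, 2 or 3 (adjusted p up to 0.118). Mki67 lost its chronic call without acute replicate 1, 2 or 3, or remission replicate 2 or 3, or control replicate 1, 2 or 3 (adjusted p up to 0.133). Top2a lost its chronic call without control replicate 1, 2 or 3 (adjusted p up to 0.0936). Smc2 lost its chronic call without acute replicate 1, 2 or 3, or remission replicate 1, 2 or 3, or chronic replicate 3, or control replicate 1, 2 or 3 (adjusted p up to 0.443). For Mki67, Top2a and Smc2, leaving out chronic replicate 3 gave chronic log2 fold changes of 1.52 ± 0.36, 1.80 ± 0.38 and 0.48 ± 0.33. Top2a lost its remission call without acute replicate 1, or remission replicate 2 or 3 (adjusted p up to 0.0779). Smc2 lost its remission call without acute replicate 1, 2 or 3, or remission replicate 1, 2 or 3, or control replicate 2 or 3 (adjusted p up to 0.145). Ncapg lost its remission call without acute replicate 1 or 3, or remission replicate 1, 2 or 3, or control replicate 1 or 2 (adjusted p up to 0.116). Ncaph lost its chronic against acute call without acute replicate 1 or 2, or chronic replicate 3 (adjusted p up to 0.14).

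Of genes for mitotic exit, Ube2c, which encodes the ubiquitin-conjugating enzyme of the anaphase-promoting complex, stood at 1.56, 2.66 and 3.26 CPM in acute and 0.185, 0.191 and 0.266 CPM in remission libraries. Chronic libraries held 0.227, 0.360 and 5.36 CPM and control libraries 0.142, 0 and 0.216 CPM. It had 27 counts in acute and 2 in control libraries, a pooled ratio of 21.4 (exact 95% counting interval 5.37 to 185), with an adjusted p of 0.0059. Against remission, with 3 counts, the ratio of remission to acute was 0.0847 (exact 95% counting interval 0.0164 to 0.275). Of the 24 chronic counts, 21 came from replicate 3. Of its exon bases, 22.8% overlap Tnnc2 on the other strand, so that reads of both cannot be told apart there. Cdc20, an activator of the same complex, passed in no comparison, at 2.26 ± 0.598 CPM in acute, 0.662 ± 0.577 CPM in remission, 4.16 ± 3.75 CPM in chronic (2.03 without replicate 3) and 1.003 ± 0.518 CPM in control mice (SD, n = 3 each). For cytokinesis, Ect2, the activator of RhoA at the division plane, stood at 5.97, 4.26 and 2.37 CPM in acute and 1.48, 1.34 and 2.92 CPM in remission libraries. It was 2.497, 4.32 and 13.3 CPM in chronic and 0.996, 2.45 and 2.37 CPM in control libraries. It passed in chronic against control mice (1.78 ± 0.56, adjusted p 0.04), while acute and control libraries overlapped. Anln, for the furrow protein anillin, passed in no comparison with all libraries, at 11.3 ± 3.08 CPM in acute, 4.16 ± 3.98 CPM in remission, 8.56 ± 8.71 CPM in chronic (3.53 without replicate 3) and 4.004 ± 1.22 CPM in control mice. Foxm1, the transcription factor of this gene set, stood at 7.004, 4.53 and 8.89 CPM in acute and 0.738, 1.72 and 0.797 CPM in remission libraries. Chronic libraries gave 3.41, 2.34 and 20.4 CPM and control libraries 2.70, 3.505 and 1.94 CPM. Remission libraries lay below all acute and control libraries, with -2.59 ± 0.82 (adjusted p 0.025) against acute mice, and its higher acute level did not pass against control mice (1.299 ± 0.71, adjusted p 0.158). Ube2c lost its chronic call without acute replicate 2, or chronic replicate 3, or control replicate 1, 2 or 3 (adjusted p up to 0.676). Ect2 lost its chronic call without acute replicate 2, or chronic replicate 3, or control replicate 1, 2 or 3 (adjusted p up to 0.4). For Ect2, leaving out chronic replicate 3 gave a chronic log2 fold change of 0.85 ± 0.54. Ube2c lost its remission call without acute replicate 2 or 3, or remission replicate 2 (adjusted p up to 0.056). Foxm1 lost its remission call without acute replicate 1 or 3, or remission replicate 1 or 3 (adjusted p up to 0.101).

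**Figure D4:**
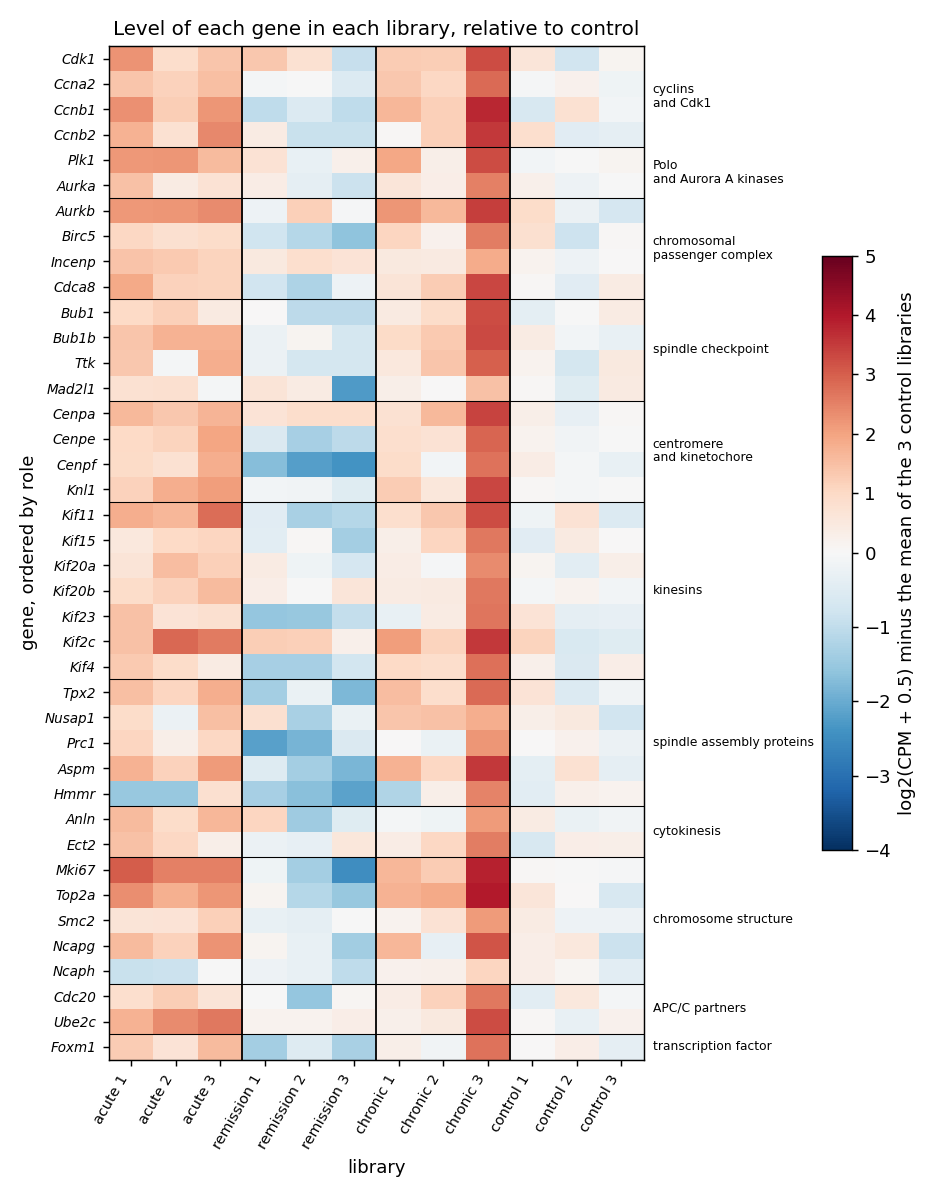
Level of each of the 40 genes (rows, by role) in each of the 12 libraries (columns), as log2(CPM + 0.5) minus the mean of the 3 control libraries. Chronic replicate 3 is the highest library in all 40 rows, the acute mean is below the control mean for Hmmr and Ncaph, and the remission mean is below it for 31 genes.

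Other genes of the cell cycle were followed in lists named from textbook roles. Of 61 further G2 and mitosis genes, 32 were tested, and 15 were higher in acute than in control mice, 19 lower in remission than in acute mice and 11 higher in chronic than in control mice, where the shares of all genes tested were 23.7%, 19.4% and 9.57%. Without chronic replicate 3, 4 of the 11 remained (Iqgap3, Ncapd2, Racgap1 and Tacc3). That fit tested 33 of the 61 and called 7.2% of all genes tested higher. Median log2 fold changes of this list were 1.505, -1.58 and 1.74 in these 3 comparisons. The last was 0.91 without that library, and the values over all genes given above were near 0. Smc4, the condensin partner of Smc2, stood at 19.7, 17.9 and 14.8 CPM in acute and 6.46, 8.03 and 9.03 CPM in remission libraries. Chronic libraries held 6.36, 6.84 and 18.6 CPM and control libraries 6.40, 5.78 and 3.67 CPM. All acute libraries lay above all others except chronic replicate 3, with a log2 fold change of 1.70 (adjusted p 0.000579) against control mice. Tacc3, a spindle protein, averaged 7.71 ± 2.66 CPM in acute and 1.77 ± 0.606 CPM in control mice (adjusted p 0.000586), and Cdc25b, a phosphatase that activates CDK1, 6.53 ± 0.532 and 1.06 ± 0.346 CPM (adjusted p 0.00142). Of 48 S phase genes, 38 were tested, and 12 were higher in acute and 12 in chronic than in control mice, while 16 were lower and 1 (Mcm7) higher in remission than in acute mice. Of all genes tested, 23.7% were higher in acute and 9.57% in chronic than in control mice, and 19.4% were lower and 17.6% higher in remission than in acute mice. Leaving out chronic replicate 3 left 3 of the 12 chronic calls, Mcm6 among them. That fit tested 39 of the S phase genes and called 7.2% of all genes tested higher. Mcm6, of the replicative helicase, stood at 11.2, 9.32 and 9.78 CPM in acute and 1.85, 1.91 and 1.06 CPM in remission libraries. It was 9.53, 7.74 and 23.97 CPM in chronic and 3.98, 2.98 and 3.45 CPM in control libraries. Its remission libraries lay below all others, with a log2 fold change of -2.59 (adjusted p 8.30e-05) against acute mice. Cdt1, which loads that helicase, averaged 11.9 ± 6.85 CPM in acute and 3.31 ± 0.689 CPM in control mice, and Chaf1b, of chromatin assembly, 4.91 ± 0.862 and 0.606 ± 0.412 CPM (adjusted p 0.000831 and 0.000968). The summed S phase level showed the same library apart, at 347, 286 and 334 CPM in acute, 198, 188 and 177 CPM in remission, 258, 274 and 610.3 CPM in chronic and 226, 197 and 202 CPM in control libraries.

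Of 6 G1 cyclin and kinase genes, all tested, the calls against control were in the lower direction, for Ccnd1 in acute mice, for Ccnd1, Ccnd2 and Cdk6 in remission and for Ccnd1 and Ccnd2 in the chronic phase, with or without replicate 3. Of all genes tested, 20.0% were lower in acute mice, 3.25% in remission and 5.17% in the chronic phase. Ccnd1, for cyclin D1, the cyclin of G1 entry, stood at 17.6, 18.4 and 21.9 CPM in acute and 20.9, 14.0 and 10.9 CPM in remission libraries. Chronic libraries gave 17.0, 21.2 and 18.1 CPM and control libraries 42.5, 49.9 and 55.5 CPM. All EAE libraries lay below all control libraries, with log2 fold changes of -1.35 (adjusted p 1.32e-05) in acute mice, -1.67 (adjusted p 7.74e-06) in remission and -1.38 (adjusted p 3.87e-05) in the chronic phase, and -1.35 (adjusted p 0.000181) there without replicate 3. The summed level of the 6 was 172 CPM in chronic replicate 3, 0.962 times that of the other two chronic libraries. Cdk6, the cyclin D partner, averaged 23.5 ± 3.66 CPM in remission and 48.5 ± 11.3 CPM in control mice (adjusted p 0.00108), and Cdk2 passed in none of the 6 comparisons. Of 4 tested inhibitors of these kinases, Cdkn1a, the p53 target p21, averaged 17.5 ± 3.99 CPM in acute, 2.18 ± 0.287 CPM in remission, 5.64 ± 1.08 CPM in chronic (5.02 without replicate 3) and 6.94 ± 2.72 CPM in control mice. It was higher in acute (adjusted p 0.000667) and lower in remission (adjusted p 0.00401) than in control mice. Cdkn2d was also higher in acute mice (adjusted p 0.000925), and Cdkn2c was higher in chronic mice (log2 fold change 1.80 (adjusted p 0.047)), a call lost without chronic replicate 3, at 1.41 (adjusted p 0.224). Of 15 tested E2F, RB and DREAM genes, 4 were higher (E2f2, E2f8, Rbl2 and Tfdp1) and 2 lower (E2f3 and Rb1) in acute than in control mice, where 23.7% of all genes tested were higher and 20.0% lower. E2f2, an activating E2F, stood at 35.5, 26.4 and 24.9 CPM in acute and 7.38, 3.25 and 3.45 CPM in remission libraries. Chronic libraries held 5.45, 3.60 and 9.18 CPM and control libraries 2.84, 4.56 and 2.81 CPM. Acute libraries lay above all others, with log2 fold changes of 3.08 (adjusted p 5.55e-07) against control mice and -2.28 (adjusted p 3.18e-05) for chronic against acute mice, or -2.68 (adjusted p 6.44e-06) without chronic replicate 3. Tfdp1, the E2F partner, and Rbl2, the pocket protein p130 of the DREAM complex, were higher in acute mice too, at 18.7 ± 5.58 and 37.4 ± 4.50 CPM in acute, against 9.04 ± 3.16 and 25.8 ± 2.04 CPM in control mice (adjusted p 0.00636 and 0.0108).

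**Figure D5:**
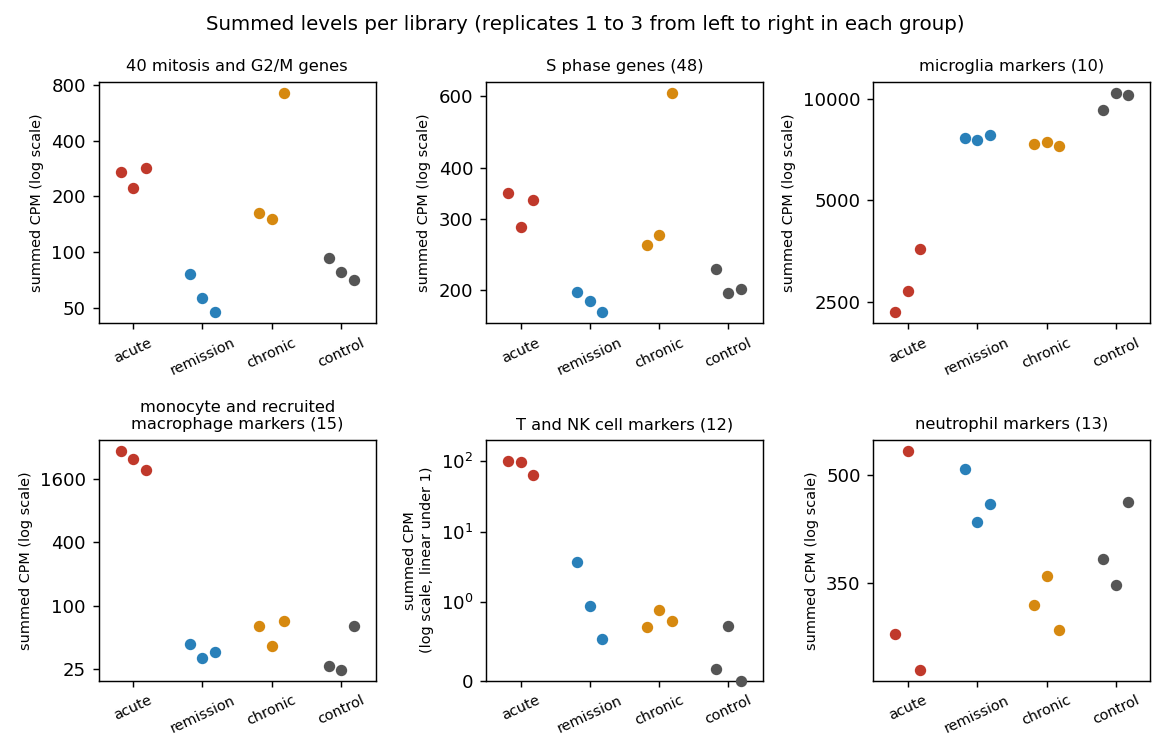
Summed CPM per library (log scale) of the 40 genes, of S phase genes and of markers of microglia, monocytes, T and NK cells and neutrophils. In chronic replicate 3 the 40 genes sum to 719 CPM and S phase genes to 610.3 CPM, while acute libraries carry 1948 to 2955 CPM of monocyte markers and 64.0 to 98.8 CPM of T and NK cell markers.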

How the data were processed

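The authors deposited raw read counts per gene for 12 libraries. The submitters' processing notes name HISAT2, SAMtools 1.3.1, Picard 2.6.4, HTSeq 0.6.1 and the build GRCm38; the counting mode and annotation release are not given in the sources used here. Each library's own file equalled its column of the merged table, and 0 columns belonged to samples outside the labels. Gene symbols were taken from GENCODE release M21.

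All 12 libraries entered 1 model with a term per group. Genes were kept by edgeR's filterByExpr (12545 of 48526), scaled by TMM and tested in edgeR 4.0.16 (R 4.3.3) by a quasi-likelihood test with robust dispersions, with Benjamini-Hochberg adjustment over all genes kept and a threshold of 0.05. DESeq2 1.42.0 and limma 3.58.1 (voom with quality weights per library) were among 9 alternative settings, beside 12 in which 1 library was left out. The fit was tested on simulated data. Per-library values are given for the 29 genes called in at least 1 comparison, and other genes by counts or means. The genes and lists were chosen with earlier results of these data known. Groups are as the labels give them. The p-values set a difference against the spread between mice within groups, estimated per gene over all 12 libraries together. Chronic replicate 3 therefore enters that spread in every comparison. Libraries of a group differed by more than sampling noise. Depth was 3992885 to 5712376 counts per library. Counting intervals are exact 95% binomial intervals on pooled counts, Wilson intervals are used for promoter shares, and both cover counting error only. Antisense neighbours could not be separated in these unstranded libraries.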

Additional observations from a re-analysis of the deposited data

How the results depend on the processing

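Of 71 calls of a gene in a comparison, 16 held under every alternative that tested the gene, and 0 reversed. The fit of only the 2 groups compared did not test some of the 16. These were Plk1 and Ube2c in acute against control, and Ccnb1, Birc5 and Cdca8 in remission against acute. With library totals alone as scaling, acute against control gave 8 higher and 1 lower (Ncaph), remission against control gave 1 lower, and all calls in chronic against control rose to 3223, while the median log2 fold change of all genes shifted by -0.56 in acute, -0.25 in remission and -0.36 in chronic against control. The share of all calls that were higher was then 22.8, 32.4 and 21.8%, in place of 54.3, 65.1 and 64.9%. It was 71.1% in place of 47.6% in remission against acute, 64.6% in place of 46.3% in chronic against acute and 62.1% in place of 78.1% in chronic against remission. DESeq2 gave 1 lower in remission against control, 0 higher in chronic against acute and 23 of 357 calls in chronic against remission. Limma-voom with quality weights gave 13 higher in chronic against control and 0 of 54 calls in chronic against remission. Without the filter there were 4 lower in remission against control, 2 higher in chronic against acute and 30 of 828 calls in chronic against remission (58.5% of all calls higher). Fitting only the 2 groups compared gave 2 lower, 3 higher and 0 of 26 calls (88.5% higher) in remission against control, chronic against control and chronic against remission. The number in the titles as a covariate, which is 1 for all chronic libraries, gave 13 higher in acute against control, 18 lower in remission against acute, 14 higher in chronic against control and 8 in chronic against remission, and 0 of 2402 calls in chronic against acute.

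Leaving out single libraries gave 6 to 25 genes higher in acute against control, 0 to 1 higher and 0 to 3 lower in remission against control (757 to 1312 calls in all) and 4 to 27 higher in chronic against control (1216 to 1927). It gave 14 to 27 lower in remission against acute, 0 to 3 higher and 0 to 4 lower in chronic against acute, and 0 to 23 higher in chronic against remission (17 to 283). These fits tested 36 to 38 of the 40 genes, and the share of all genes called is not given for each. The summed level in acute mice was 216 CPM with library totals, 203 CPM without the gene with the most counts and 184 CPM without Mki67 and Top2a, a setting chosen after seeing the data; in control mice it was 100.3 CPM with library totals and 68.4 CPM without those 2 genes. Counting TTCGAA and TTTAAA with TTTGAA raised the promoter share to 91.2%. The cause of these shifts was not tested. No paired analysis was possible because the replicate numbers follow the order of the samples and tie no mice together. Low counts also limit single genes, since 8 of the 40 had 3 or fewer counts over all remission libraries. Leaving out control replicate 3 or chronic replicate 3 ended 29 and 28 of the 71 calls.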
